A study of Mus musculus with 9 samples.

Results

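The comparison set the hippocampus of 6 mice that inhaled linalyl acetate (LA), 3 at 1% and 3 at 10%, against that of 3 mice that inhaled vehicle, with both LA doses treated as one group. Linalyl acetate is an ester abundant in lavender oil. The features described in depth are the transcript clusters, probe groups that each stand for one gene on the array, whose 6 LA values all lay on one side of the 3 vehicle values in both deposited tables of log2 values. This held for 240 of 13323 clusters above a low-signal filter, or 1.80% of them. Of these, 111 (0.833%) were higher and 129 (0.968%) were lower with LA. In the signal table alone 405 (3.04%) were higher and 430 (3.23%) lower, 6.27% together, and in the series matrix alone 193 (1.45%) and 235 (1.76%), 3.21% together. The 2 tables list the same 9 samples and hold nearly the same values for all but vehicle replicate 3, so they are not independent. These counts are a description with no test.

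All groups were male ICR mice, an outbred stock, aged 8 weeks and housed singly, with 1 array per mouse. The 10% LA and 1% LA mice received LA through a diffuser over the whole body for 7 days. The vehicle mice received 1% Tween 80, a detergent, without LA in the same way. Tween 80 at 1% is recorded for the LA mice as well, so all groups shared it. A tail suspension test, which scores immobility in a mouse hung by its tail, followed 30 min of inhalation, so every group carried that handling. The groups are those of the sample titles. The description fields of 5 samples (the 3 vehicle samples and 2 of the 1% LA samples) tell instead of oral dosing and injections, with endotoxin named for vehicle replicate 3 among others, and which text applies was not tested.

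Neurons switch on a set of immediate early genes within minutes of firing or of a growth signal, and the transcripts decay quickly, so their level in hippocampus is read as a trace of recent activity and of arousal or stress. The circadian clock drives another kind of timed transcript: Dbp encodes a factor that binds D-box elements and rises and falls daily, and Nfil3 encodes a repressor of the same elements. Scaffold proteins such as the Shank family hold glutamate receptors in place at excitatory synapses.

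The arrays were alike in overall signal, with medians from 6.84 to 6.88 log2 units over all 22206 clusters. Transcripts of excitatory hippocampal neurons were strong, with Camk2a at a mean of 19.65 and Slc17a7, the vesicular glutamate transporter, at 17.79. Vehicle replicate 3 stood apart: its values in the 2 tables correlated at 0.9811 and differed by over 1 log2 unit in 1778 clusters, while each other array correlated at 0.9993 or 0.9994 with at most 1 such cluster. For most genes described array by array both values of that array are therefore given, and other differences are given from both tables where they move by over 1.5 times. In bulk tissue, fewer cells of a type and less RNA per cell cannot be told apart.

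No cluster passed an adjusted p of 0.05 for LA against vehicle in the limma fit over all 13323 clusters, in either table. The smallest adjusted p was 0.0879 in the signal table, for Arc, and 0.0695 in the series matrix, shared by Dbp and Arc. At an unadjusted p of 0.05 the signal table gave 2295 clusters (17.2%), of which 1179 (8.85%) were higher and 1116 (8.38%) lower with LA, and the series matrix gave 854 (6.41%). In the signal table the count of adjusted calls depended on which vehicle arrays were kept. It was 1103 without vehicle replicate 1, with 611 higher and 492 lower, while it was 3 without vehicle replicate 2 and 0 without vehicle replicate 3. In the series matrix the count was 0 without vehicle replicate 1, so the 1103 calls held in the signal table alone. Of the 1103 clusters, out of 13323 tested, 76 belonged to the 240 described here, 35 higher and 41 lower. The 240 were chosen by the same contrast on the same arrays, so nothing is read from this overlap.

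The separating clusters were chosen by this same contrast, so their differences describe them and are not tests. Among the 111 higher clusters the median LA minus vehicle difference was 0.46 log2 units in the signal table (range 0.15 to 1.44) and 0.41 in the series matrix. Among the 129 lower clusters it was -0.50 (range -1.54 to -0.19) and -0.47. Over all clusters tested the medians were -0.0150 and -0.00765. A fold above 2 in both tables was seen for 2 higher and 7 lower clusters, and for 23 of all clusters tested. For 24 of the 240 the signal table gave a difference over 1.5 times that of the series matrix, and for none the reverse held. Over all clusters tested the shares were 46.9% and 20.1%, and the demand for separation in both tables favours like values, so nothing is read from the low counts.

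**Figure D1:**
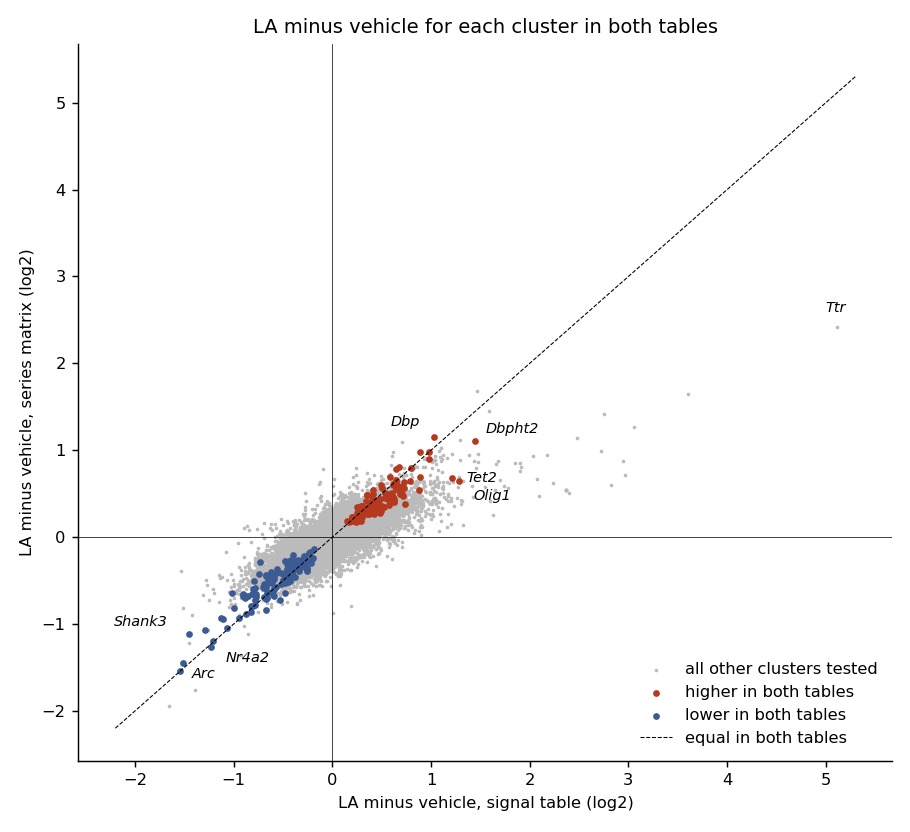
Each point is 1 of the 13323 transcript clusters tested. The horizontal axis is the mean of 6 LA arrays minus the mean of 3 vehicle arrays in the signal table, the vertical axis the same in the series matrix, both in log2 units. The 111 higher (red) and 129 lower (blue) clusters lie near the dashed line of equal values, while Ttr and other choroid plexus transcripts lie far below it.

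How far apart the groups stood varied widely. The gap is the distance between the LA and vehicle arrays nearest each other, taken in the table where it is smaller. Among clusters with a usable gene name, which leaves out predicted genes, it was 0.80 log2 units for Dbp and 0.72 for Arc. Next among these were 0.53 for Klf10, 0.38 for Rasal2, 0.34 for Junb and 0.30 for Flt1. Over all 129 lower clusters the widest gap was 0.79, for a cluster without such a name. Only 24 of the 240 clusters had a gap over 0.2 in both tables, 6 higher and 18 lower. Narrowest among the clusters with a usable name were Stk10 at 0.000330, Usp12 at 0.000700 and Nfil3 at 0.00114. Just outside the rule, Atp6v1h, Cnnm3 and Tmx2 had a gap of 0.00 in the signal table, where an LA and a vehicle value were equal, and gaps of 0.0645, 0.0185 and 0.0839 in the series matrix.

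Promoters are shown for 3 separating genes, each with the 250 bases before its start in RefSeq's table for GRCm38.p6, read along the gene's strand. Dbp is the higher gene with the widest gap and Junb is an immediate early gene, while Flt1 holds a cyclic AMP response element. Capitals mark a motif match, and the lines without capitals held none of the 5 motifs searched. Arc is named only.
Dbp, chr7:45704997-45705246, plus strand: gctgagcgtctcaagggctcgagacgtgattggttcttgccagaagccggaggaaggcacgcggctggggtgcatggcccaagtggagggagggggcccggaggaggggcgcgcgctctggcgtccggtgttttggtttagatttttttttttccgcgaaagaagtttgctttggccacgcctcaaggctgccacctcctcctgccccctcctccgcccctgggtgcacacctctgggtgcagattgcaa
Junb, chr8:84978749-84978998, minus strand: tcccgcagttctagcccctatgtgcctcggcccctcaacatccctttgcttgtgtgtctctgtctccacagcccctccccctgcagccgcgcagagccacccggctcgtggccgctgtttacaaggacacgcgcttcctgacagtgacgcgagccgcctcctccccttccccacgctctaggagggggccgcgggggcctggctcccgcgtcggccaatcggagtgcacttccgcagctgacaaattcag
Flt1, chr5:147726012-147726261, minus strand: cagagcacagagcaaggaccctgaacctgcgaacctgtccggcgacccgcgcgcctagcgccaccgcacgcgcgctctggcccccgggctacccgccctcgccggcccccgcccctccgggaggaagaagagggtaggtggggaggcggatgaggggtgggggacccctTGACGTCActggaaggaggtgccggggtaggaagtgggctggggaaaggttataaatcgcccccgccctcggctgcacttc

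The motifs were searched on both strands of the 250 bases before and 50 after the start. RefSeq promoters matched 77 of the higher and 91 of the lower genes. The cyclic AMP response element TGACGTCA was in 1 of the higher promoters (1.3%) and in 3 of the lower ones (3.3%: Flt1, Ptpru and Cltb, named after their matches were seen), against 3.42% of 9917 promoters of all genes tested and 2.03% of 27025 in the table. The E-box CACGTG was in 7 higher (9.09%) and 15 lower promoters (16.5%), against 11.2% of those of genes tested and 8.09% of the table. The AP-1 site TGANTCA was in 3 higher (3.9%) and 4 lower promoters (4.4%), against 6.11% and 8.97%. The D-box TTATGTAA was in 1 higher promoter and no lower one, against 0.726% and 1.11%, and the serum response element was in 2 higher and no lower ones, against 1.72% and 1.81%. These matches describe letters in the window and are not binding sites.

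Immediate early genes supplied several of the lower clusters. Of 34 clusters of the list tested, 8 were lower in all LA arrays in both tables and none was higher: Arc, Nr4a2, Nr4a1, Junb, Cyr61, Klf10, Sik1 and, named after its values were seen, Gadd45b. The same separation downwards held for 0.968% of all clusters. The list's median difference was -0.41 in the signal table and -0.29 in the series matrix. None of its members passed the adjusted test.

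Arc encodes a protein that moves AMPA receptors away from synapses. Its lowest, median and highest log2 signals were 6.99, 7.20 and 7.66 over the 6 LA arrays, against 9.18, 8.38 and 8.80 on vehicle arrays 1, 2 and 3 (8.65 for array 3 in the series matrix). The highest LA array thus lay 0.72 below the lowest vehicle array. The difference was -1.54 ± 0.20 (SE of the fit, 6 against 3 arrays), with -1.46 at 1% LA and -1.62 at 10% LA.

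The Nr4a genes encode orphan nuclear receptors induced by activity. Nr4a1 read 7.98, 8.39 and 8.90 (lowest, median, highest) with LA, against 9.99, 9.17 and 9.67 with vehicle, where the series matrix had 9.69 for array 3. Nr4a2 read 10.71, 11.46 and 12.12 with LA, against 13.52, 12.28 and 12.45 with vehicle (12.53 in the series matrix). Both groups of arrays stayed apart for each gene, though for Nr4a2 by only 0.16 in the signal table and 0.13 in the series matrix, and vehicle replicate 1 was the highest array for both. Their differences were -1.21 ± 0.25 for Nr4a1 and -1.23 ± 0.33 for Nr4a2. The third member of the family, Nr4a3, did not separate and differed by 0.22 ± 0.29 in the signal table and -0.15 in the series matrix.

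Junb encodes a subunit of the AP-1 transcription factor. It read 6.77, 7.07 and 7.78 with LA, against 8.49, 8.19 and 8.70 with vehicle (8.20 in the series matrix), a difference of -1.29 ± 0.23 that was the same at both doses. Klf10, a zinc finger factor induced by TGF-beta, had the next widest gap of the list after Arc, with 7.00, 7.15 and 7.30 with LA, against 7.87, 7.85 and 8.27 with vehicle (8.15 in the series matrix). The groups were apart by 0.53 or more in each table, and its difference was -0.83 ± 0.15. Sik1, a kinase that restrains CREB coactivators, differed by -0.81 ± 0.17, and Cyr61, a matricellular protein, by -1.13 ± 0.19. Gadd45b, a stress-inducible gene linked to DNA demethylation, differed by -0.43 ± 0.15.

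Other members were lower on average without separating in both tables. Dusp1, a phosphatase of MAP kinases, had the largest difference of the list, -1.66 ± 0.44 in the signal table and -1.94 in the series matrix, and at least 1 LA array overlapped the vehicle arrays. Egr1 differed by -1.31 ± 0.42 and -0.67 in the 2 tables, and 1 of 2 Egr3 clusters by -0.77 ± 0.20 and -0.38. Bdnf, a neurotrophin, was at 0.26 ± 0.20 and Homer1, a synaptic scaffold, at 0.0517 ± 0.25, with 0.34 and 0.45 in the series matrix. In all, 5 of the 34 clusters had a positive difference in the signal table and 8 in the series matrix. Averaged over the list after centring each cluster, the level was -0.28 to -0.11 on the LA arrays, against 0.14 to 0.49 on the vehicle arrays. In the series matrix it was -0.24 to -0.0806 against 0.18 to 0.45. This average includes the 8 separating clusters, and the list was chosen with earlier results of these data known. Nothing is therefore read from the lack of overlap.

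**Figure D2:**
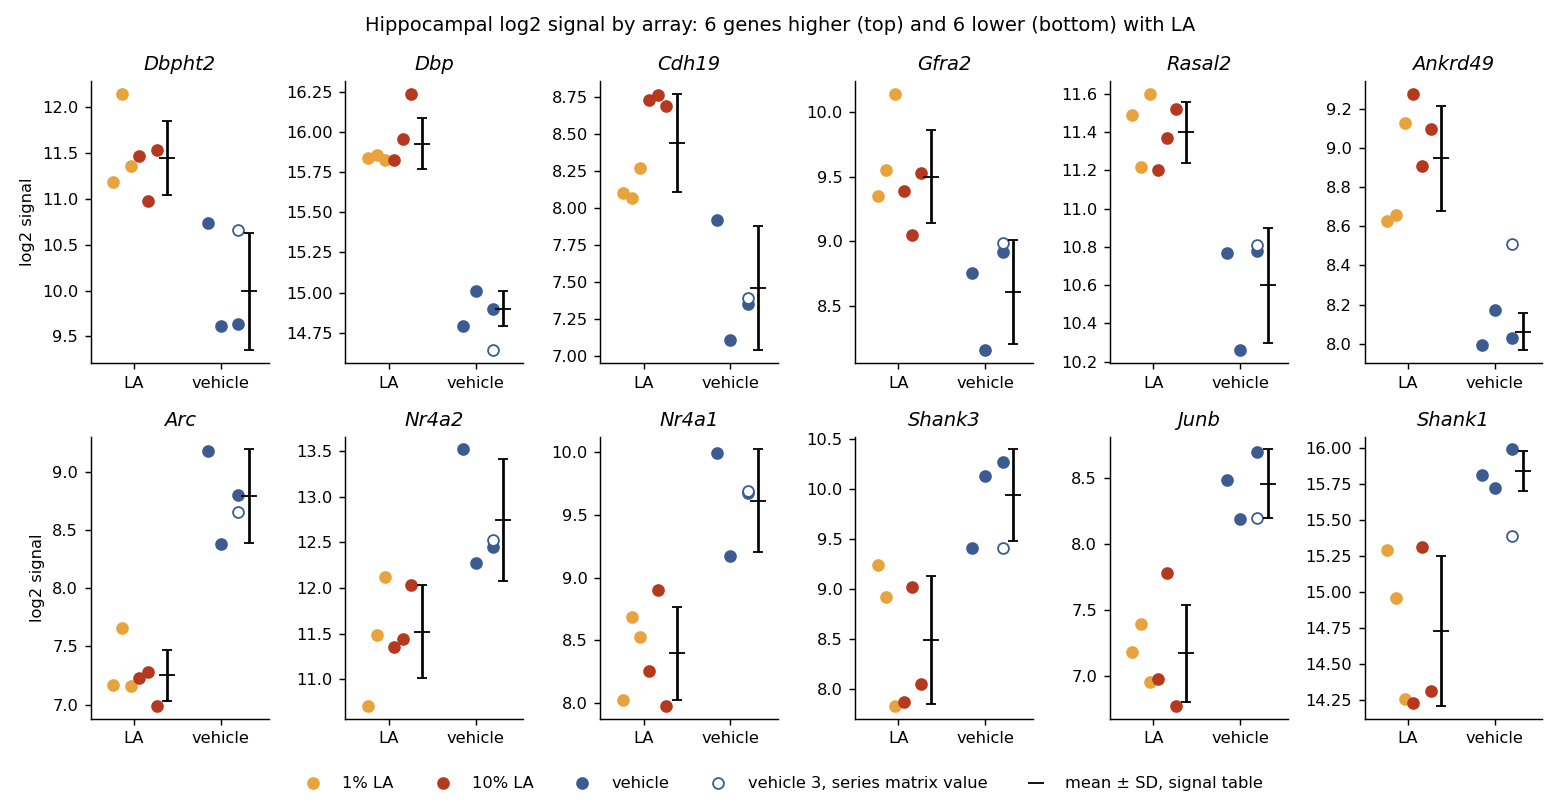
Log2 signal on each array (vertical axes, each with its own range) for the 6 higher (top row) and 6 lower (bottom row) named genes with the largest difference in both tables. LA arrays stand left (1% orange, 10% red) and vehicle arrays right (blue), with the series matrix value of vehicle replicate 3 as an open circle and bars for mean ± SD. Arc and Dbp show the widest gaps of those drawn. The open circle lies nearer to the LA arrays than the filled one for Shank1, Shank3, Dbpht2, Ankrd49 and Junb. Smaller shifts the same way are seen for Arc, Cdh19, Gfra2 and Rasal2. For Dbp, Nr4a1 and Nr4a2 the open circle lies farther from the LA arrays.

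The postsynaptic scaffold list held 2 separating clusters of 26 tested, while 0.968% of all clusters separated downwards. Both were lower: Shank3 and Shank1, which encode master scaffolds of the postsynaptic density. Shank3 read 7.83, 8.48 and 9.24 with LA, against 9.41, 10.13 and 10.27 with vehicle, where array 3 had only 9.41 in the series matrix. Its difference was -1.45 ± 0.34 in the signal table and -1.11 in the series matrix. Shank1 read 14.23, 14.64 and 15.31 with LA, against 15.81, 15.72 and 15.99 with vehicle (15.39 in the series matrix), so that the gap was 0.41 in the signal table and 0.0521 in the series matrix. The list as a whole was near the median of all clusters, at -0.0708 and -0.0701. Dlg4, the gene of PSD-95, differed by 0.0217 ± 0.15 (0.11 in the series matrix), Shank2 by -0.60 ± 0.23 (-0.27 in the series matrix), and Dlg2, a relative of PSD-95, by 0.64 ± 0.30.

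Further lower genes came from several classes. Fn1, fibronectin, differed by -0.83 ± 0.23 and Cbln2, a secreted synapse organiser, by -0.86 ± 0.20. Ogdhl, a relative of the oxoglutarate dehydrogenase subunit, differed by -0.89 ± 0.21, Nova2, a neuronal splicing regulator, by -0.69 ± 0.19, and Mical3, a flavin enzyme that acts on the cytoskeleton, by -0.91 ± 0.20. Rnf31, the catalytic subunit of the linear ubiquitin chain complex, differed by -0.90 ± 0.25, with vehicle replicate 3 at 8.46 (7.65 in the series matrix) and the other vehicle arrays at 7.50 and 7.41. Without vehicle replicate 3 the Rnf31 difference was -0.57, and in the series matrix it was -0.67. These 6 genes had separating values in both tables, with gaps in the signal table between 0.0900 for Rnf31 and 0.28 for Mical3.

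Fn1 and Cbln2 were the separating members of a list of 13 tested markers of subiculum and deep cortex, regions that border the hippocampus. Of all clusters, 0.968% separated downwards. That list had the lowest median of the 33 lists, -0.67 in the signal table and -0.54 in the series matrix. Among its other members Rspo2 differed by -1.26 ± 0.29 and Nxph3 by -1.05 ± 0.24, while Fezf2 was at 0.19 ± 0.29 and -0.0583 in the 2 tables. The list's level was -0.64 to 0.22 on the LA arrays, against 0.26 to 0.48 on the vehicle arrays. In the series matrix it was -0.55 to 0.27 against 0.0326 to 0.54, so that the groups overlapped there. Nr4a2 is a known transcript of those regions as well as an immediate early gene. The part of this marker list in the other differences was not tested.

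Other separating lower members stood alone in their lists, where 1 member is to be set beside the 0.968% of all clusters that separated downwards. Flt1, which encodes vascular endothelial growth factor receptor 1, read 9.01, 9.32 and 9.58 with LA, against 9.98, 9.90 and 9.88 with vehicle (9.91 in the series matrix). The vehicle arrays were nearly level, and the difference was -0.60 ± 0.15. Flt1 was the only separating cluster among 14 of endothelium and pericytes, whose median was 0.0800 in the signal table and -0.0511 in the series matrix. Ddit4, an inhibitor of the growth kinase complex mTORC1 that is induced by hypoxia and glucocorticoids, differed by -0.67 ± 0.17 and -0.84 in the 2 tables, alone among 22 glycolysis and hypoxia clusters.

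Grin2c, an NMDA receptor subunit, differed by -0.62 ± 0.18 (-0.40 in the series matrix) and was the only one of 18 ionotropic glutamate receptor clusters to separate. Irf9, a factor of the interferon response, differed by -0.67 ± 0.24, alone among 8 interferon and MHC clusters, with vehicle values of 6.58, 6.60 and 7.68. Array 3 was at 7.00 in the series matrix, where the Irf9 difference was -0.45, and without that array it was -0.31. Hsph1, a chaperone, differed by -0.33 ± 0.14 (1 of 14 heat shock clusters), and Mtf1, the metal-sensing transcription factor, by -0.39 ± 0.16 (1 of 12 metal handling clusters). Kmt2d, a histone methyltransferase, differed by -0.52 ± 0.14, while Tet2 from the same list of 19 chromatin regulators was higher.

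Among the higher genes Dbp had the widest gap. It read 15.83, 15.85 and 16.24 with LA, against 14.79, 15.01 and 14.90 with vehicle (14.64 for array 3 in the series matrix). Every LA array lay at least 0.80 above every vehicle array in each table, and 5 of the LA arrays read between 15.83 and 15.96. The difference was 1.03 ± 0.14 in the signal table and 1.15 in the series matrix, with 0.94 at 1% LA and 1.11 at 10% LA.

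Nfil3, the repressor of the same elements, was lower, with 6.38, 6.63 and 6.83 with LA, against 6.95, 7.29 and 7.40 with vehicle (7.53 in the series matrix). Its difference was -0.59 ± 0.16, though in the series matrix the gap was 0.00114. These were the only separating clusters of 24 on the circadian list, whose medians were 0.0342 and 0.0809. Of all clusters, 1.80% separated in either direction. Clock differed by 0.65 ± 0.14 (0.39 in the series matrix) and Arntl, its partner, by -0.40 ± 0.21. The period genes differed by -0.43 ± 0.23 (Per1), -0.11 ± 0.28 (Per2) and 0.0867 ± 0.21 (Per3), with -0.28, 0.29 and 0.33 in the series matrix. The labels give no hour of collection, and its part was not tested.

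The remaining higher genes with the largest differences came from several classes. Dbpht2 had the largest difference, 1.44 ± 0.29, with 10.97, 11.41 and 12.14 with LA, against 10.73, 9.61 and 9.64 with vehicle. In the series matrix vehicle replicate 3 was at 10.66 and the difference was 1.11. The vehicle arrays thus differed among themselves by more than 1 log2 unit in this gene.

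Cdh19, a cadherin, read 8.07, 8.48 and 8.76 with LA, against 7.92, 7.11 and 7.35 with vehicle, a difference of 0.98 ± 0.18. Gfra2, the coreceptor for neurturin, read 9.05, 9.46 and 10.14 with LA, against 8.76, 8.16 and 8.92 with vehicle, a difference of 0.89 ± 0.22. Rasal2, a brake on Ras, read 11.20, 11.43 and 11.60 with LA, against 10.77, 10.26 and 10.78 with vehicle, a difference of 0.80 ± 0.17. The groups did not overlap for any of these, but vehicle replicate 1 for Cdh19 and vehicle replicate 2 for Gfra2 and Rasal2 stood away from the other vehicle arrays.

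Ankrd49, an ankyrin repeat protein, read 8.63, 9.0 and 9.28 with LA, against 7.99, 8.17 and 8.03 with vehicle, while the series matrix had 8.51 for array 3. Tet2, an enzyme that oxidises methylated cytosine, had vehicle values of 9.77, 9.01 and 8.29 and a difference of 1.21 ± 0.27 in the signal table, against 0.68 in the series matrix, where array 3 was at 9.78. Usp53, Prkdc (the catalytic subunit of DNA-dependent protein kinase), Fpgt, Cdpf1, Maged2 and Ankrd50 differed by 0.61 to 0.79 in the signal table, with Maged2 at 0.42 without vehicle replicate 2. Ocrl, an inositol phosphatase named here for its gap, differed by 0.66 ± 0.15 with a gap of 0.29.

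Glial marker lists held 3 of the higher clusters. Olig1, a transcription factor of the oligodendrocyte lineage, differed by 1.28 ± 0.28 in the signal table and 0.64 in the series matrix. Its LA values were 9.27, 9.51 and 9.69, against vehicle values of 8.96, 8.31 and 7.36, with 9.09 for array 3 in the series matrix. Vcan, a matrix proteoglycan, differed by 0.57 ± 0.18, and the 2 were the separating members of 12 oligodendrocyte precursor clusters (0.833% of all clusters separated upwards). The list's median was 0.47 in the signal table and 0.19 in the series matrix, and its member Sox10 was at -0.33 ± 0.19 and -0.57.

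P2ry13, a purine receptor of microglia, differed by 0.71 ± 0.20 in the signal table and 0.47 in the series matrix, alone among 17 microglia clusters with medians of 0.39 and 0.21. Hapln1, which links hyaluronan to proteoglycans in perineuronal nets, differed by 0.62 ± 0.16. No cluster separated among 15 of myelinating oligodendrocytes (medians 0.45 and -0.0682) or 17 of astrocytes (0.14 and 0.0436).

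Choroid plexus epithelium, the tissue that makes cerebrospinal fluid and lies against the hippocampus, held the cluster with the largest difference of all, Ttr, but none of its 19 clusters separated. The list's median difference was 2.07 in the signal table and 0.67 in the series matrix, and all 19 were positive in each. Its level ran from -1.36 to 1.97 on the LA arrays, against -2.32, 0.24 and -2.18 on vehicle arrays 1, 2 and 3, with 1.17 for array 3 in the series matrix. Ttr, transthyretin, differed by 5.11 ± 1.5 and 2.42 in the 2 tables. With this level as a covariate, 1012 clusters had an unadjusted p under 0.05, against 2295 without it, and still none passed the adjusted test. In that fit Arc differed by -1.25, Junb by -0.86 and Dbp by 1.01. Of the 44 separating genes named by rule, 7 had a difference over 1.5 times smaller there: Nr4a1 (-0.65), Nr4a2 (-0.74), Cbln2 (-0.44), Vcan (0.36), Grin2c (-0.36), Irf9 (-0.37) and Il33 (0.26).

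**Figure D3:**
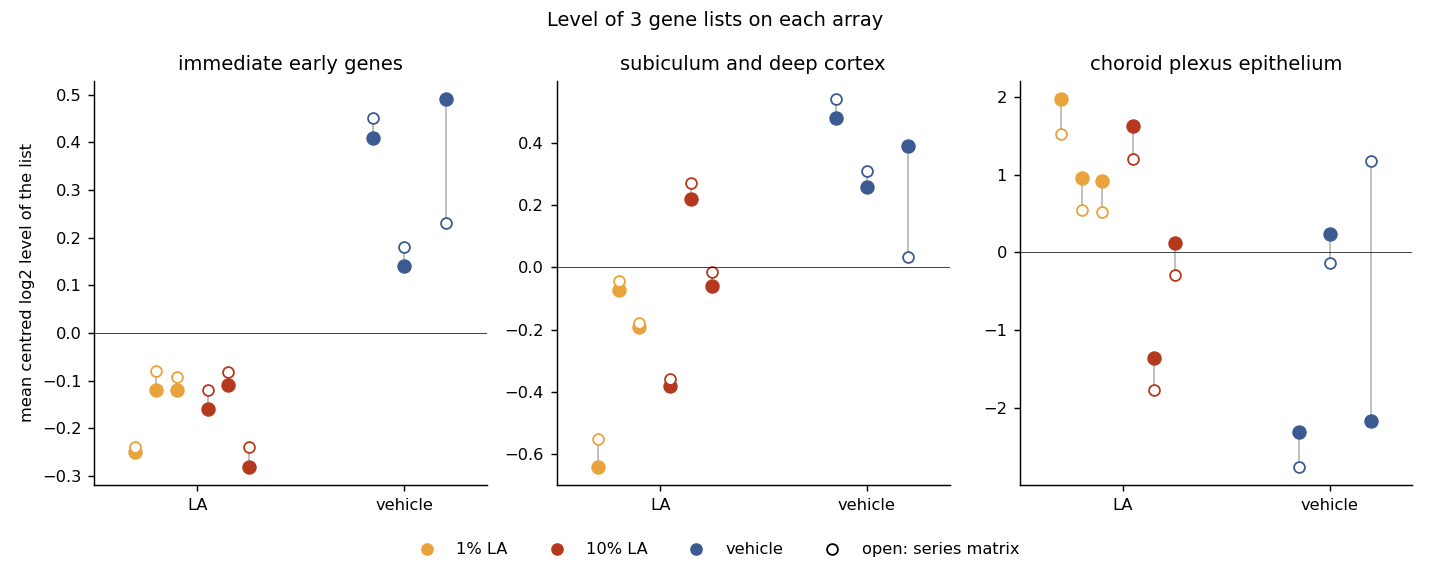
Level of 3 gene lists on each array, as the mean over the list of log2 values centred per cluster (vertical axes). LA arrays stand left and vehicle arrays right, with filled circles for the signal table and open circles for the series matrix. The immediate early level lies between -0.28 and -0.11 on the LA arrays and between 0.14 and 0.49 on the vehicle arrays. That list includes 8 clusters chosen by this same contrast, so nothing is read from its lack of overlap. The choroid plexus level of vehicle replicate 3 is -2.18 in one table and 1.17 in the other.

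The remaining lists held no separating cluster, apart from Gfra2 among 19 neurotrophin and neuropeptide clusters (medians 0.0550 and 0.0643 in the signal table and the series matrix). Medians were 0.20 and 0.11 for 12 GABA-A receptor subunits, where Gabra2 differed by 1.11 ± 0.29, and 0.22 and 0.16 for 21 cholesterol synthesis clusters, where Hmgcs1, the gene of HMG-CoA synthase, differed by 0.80 ± 0.21. They were -0.0858 and 0.0148 for 24 synaptic vesicle clusters, 0.0867 and -0.0221 for 26 potassium channels, and 0.0900 and 0.0943 for 17 monoamine receptors and enzymes. Glucocorticoid targets (15 clusters) had medians of 0.15 and 0.0162, esterases and drug metabolism (16) of 0.0383 and 0.0863, and the unfolded protein response (16) of -0.0283 and -0.0580. Endotoxin-responsive inflammation, with only 8 of 23 clusters above the filter, had medians of 0.0200 and -0.13. Serpina3n, an acute phase gene of astrocytes, differed by 1.05 ± 0.38 in the signal table and 0.43 in the series matrix, where vehicle replicate 3 was at 12.54 instead of 10.36, and Nfkbia, an NF-kappaB inhibitor, by -0.62 ± 0.25.

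For the lists with 1 separating lower member named above, the medians were -0.14 and -0.0460 for ionotropic glutamate receptors, 0.23 and 0.18 for metal handling, 0.0125 and -0.0885 for heat shock, -0.12 and -0.0718 for glycolysis and hypoxia, and -0.0158 and -0.0881 for interferon and MHC genes. Chromatin regulators, with 1 member in each direction, had -0.18 and -0.11.

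Among cell type lists with no separating member, 11 dentate granule cell clusters had medians of 0.35 and 0.15, with C1ql3, a secreted synaptic protein, at 0.87 ± 0.24 and 0.56. The 13 clusters of CA pyramidal cells had -0.0767 and -0.0559, with Rxfp1, the relaxin receptor, at -1.42 ± 0.41 and -0.90. Interneurons (12) had -0.0550 and 0.0693, thalamus and habenula (10) 0.15 and -0.0203, meninges and fibroblasts (13) 0.18 and 0.0700, ependyma (4) 0.0200 and -0.0672, and blood (4) 0.35 and 0.0943.

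**Figure D4:**
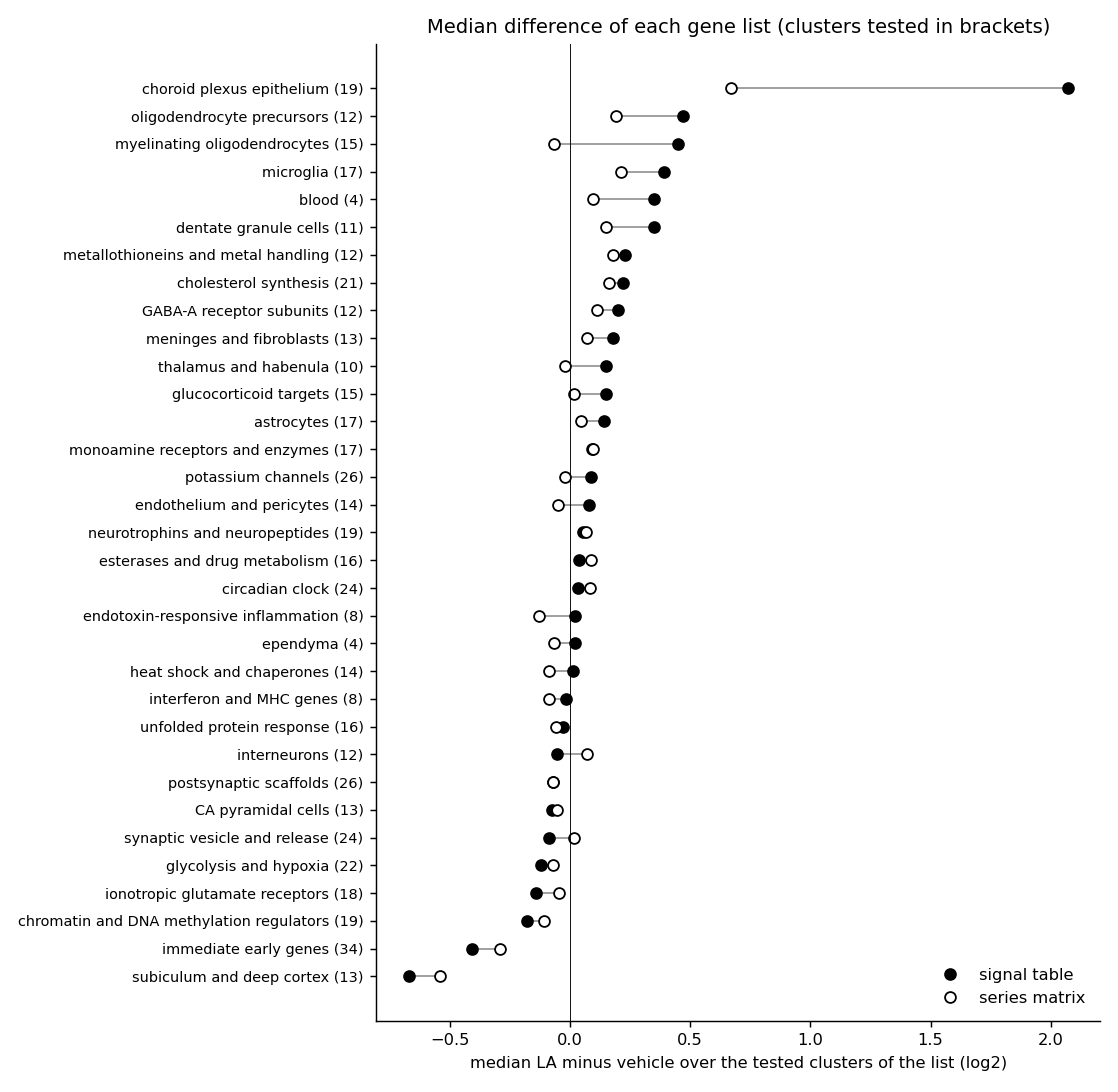
Median LA minus vehicle difference (horizontal axis, log2) of each of the 33 gene lists, with the number of clusters tested in brackets. Filled circles are the signal table and open circles the series matrix. Immediate early genes and the subiculum and deep cortex markers lie lowest in both tables, and choroid plexus is at 2.07 in the signal table and 0.67 in the series matrix.

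The 10% LA and 1% LA groups were also compared with each other. The difference itself does not use the vehicle values, but its p-values use the spread over all 9 arrays. No cluster passed an adjusted p of 0.05 in either table, and 271 of 13323 (2.03%) had an unadjusted p under 0.05 in the signal table and 306 (2.30%) in the series matrix. Among the 240 separating clusters the count was 2 (0.833%), both among the higher ones, and the smallest adjusted p was 1.00. The rule itself favours clusters with little spread among LA arrays (median SD 0.16, against 0.23 over all clusters tested), so nothing is read from the lower share. The difference from vehicle was larger at 10% LA in 137 of the 240 (57.1%), against 52.7% of all clusters tested. The median size of the difference between doses was 0.10 log2 units, against 0.12 over all clusters tested.

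The 2 clusters were Cdh19 and Parl. Cdh19 differed from vehicle by 1.27 at 10% LA and 0.69 at 1% LA, and the 3 arrays at 10% LA lay above all 3 at 1% LA. Parl, a mitochondrial rhomboid protease, differed from vehicle by 0.19 at 10% LA and 0.62 at 1% LA. Stx17, a syntaxin of autophagosomes, stood at 0.51 and 0.20, Il33, an alarmin cytokine, at 0.67 and 0.30, and Cdc45, a replication factor, at 0.64 and 0.30. The 2 doses share the vehicle arrays, so their differences from vehicle are not independent. The median standard error of the difference between doses was 0.21. Differences well above it, such as 0.58 for Cdh19, also did not pass the adjusted test, so dose effects of that size could go undetected here.

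The separating clusters can also be described by what the array and RefSeq record of them. A usable single gene name was held by 101 of the 111 higher and 102 of the 129 lower clusters, against 11754 of the 13323 tested. Of all 240, 12 carried several symbols and 25 were predicted genes, Riken clone names, receptors or histones, against 489 and 1077 of the 13323 tested. Of 27 lower clusters without a usable name, 19 were predicted genes, against 2 of 10 among the higher ones. The 19 include a run of 8 neighbouring clusters with near-identical names, described below, so they are not separate observations. The share of predicted genes alone over all clusters was not counted. Genes were longer among the higher clusters, with a median length of 30414 bases for 104 genes placed, against 18272 for 111 lower genes and 25004 for 12592 genes tested. The median GC content of the promoters was 60.3% for the higher and 63% for the lower genes, against 60.7%. These are descriptions of the chosen clusters, with no test.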

How the data were processed

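RNA from the hippocampus of 9 mice was hybridised to Clariom S mouse arrays, 1 per mouse. The deposited signal table holds log2 signals that the authors normalized with signal space transformation RMA, as stated in the design text. RMA, limma and Transcriptome Analysis Console 4 are named in the submitters' processing notes. The series matrix holds log2 values of the same arrays per the submitters, on the scale of the signal table and with no centring of genes, to judge by correlations of 0.9993 or 0.9994 on all arrays but vehicle replicate 3. Its array medians were 6.87 to 6.91, and its own normalization is not stated.

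Values were used as deposited. Clusters with a mean signal above the 40th percentile (5.98) were kept, 13323 of 22206. A mean per group (10% LA, 1% LA, vehicle) was fitted with limma 3.58.1 in R 4.3.3 (lmFit, eBayes, Benjamini-Hochberg over all clusters kept, threshold 0.05), and the mean of the LA groups was set against vehicle. The fit was tested on simulated data. No depth exists for arrays: the number of arrays limits the precision, with a median standard error of 0.18 log2 units. Labels name no litters, so p-values measure the spread between these mice.

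Named genes are, per direction, the 15 separating clusters with the largest smaller difference of the 2 tables, with array values for the first 6. Up to 4 separating members per list are named, otherwise up to 2 with the smallest p, and up to 5 for the dose contrast. Predicted, receptor and histone genes are counted only. List members are shown as counts and medians for 19 function and 14 cell type lists, of whose 588 symbols 573 were found. Values of further list members in the text were chosen after they were seen. Symbols turned into dates were restored for 26 of 27 clusters. The members and lists were chosen with earlier results of these data known. The replicate numbers did not pair the samples: correlations of deviations ran from -0.17 to 0.17 over 9 same-numbered pairs and from -0.27 to 0.34 over 18 other pairs. Alternatives covered the table, filter, scaling, prior, block, a choroid plexus covariate and left-out arrays. The deposited comparison tables were not used.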

Additional observations from a re-analysis of the deposited data

Results flagged for a closer look

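With 6 LA arrays per gene, an array was looked at again where its gap to the nearest other array was above Dixon's critical share of the group's range, which chance alone gives in about 1 in 20 groups. For Dbp, the third 10% LA array stood highest, at 16.24, with the next LA array at 15.96 and the lowest at 15.83, against 14.79 to 15.01 on the vehicle arrays. For Mpped1, a marker of CA pyramidal cells, the first 10% LA array was lowest at 11.25, with the others from 11.92 to 12.24, against 12.30 to 12.60 with vehicle. For Pvalb, the calcium-binding protein of fast-spiking interneurons, the second 10% LA array was highest at 10.24, with the others from 8.87 to 9.35, against 9.66 to 10.52 with vehicle.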

How the results depend on the processing

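The count of clusters passing an adjusted p of 0.05 for LA against vehicle, 0 as reported, was 2 with an intensity trend in the prior (Dbp and Arc), 1 with both doses fitted as 1 group (Arc), and 0 to 1103 when each array was left out in turn. It was 0 to 1 in the series matrix without each vehicle array (Dusp1 without vehicle replicate 2). The difference between doses kept 0 calls in every setting run. By the fold and unadjusted p that the design text gives (2 and 0.05) 159 clusters were called (125 higher, 34 lower), 75 to 444 with an array left out, 18 in the series matrix (6 higher, 12 lower), 21 to 79 there without each vehicle array in turn (42 without vehicle replicate 1), and 17 with the series matrix values of vehicle replicate 3 put into the signal table, a setting chosen after seeing the data. Separating clusters numbered 405 higher and 430 lower in the signal table alone, 193 and 235 in the series matrix alone, and 6 and 18 with a margin over 0.2. With an array left out, which eases the rule, they were 128 to 487 higher and 156 to 550 lower; without vehicle replicate 3 they were 487 and 550. With the replicate number as a block, 0 clusters passed and 2253 had an unadjusted p under 0.05, the fold and p criteria called 158, and the numbers share only a label. Of 1760 values of single genes under the alternatives, 1698 kept direction and side of the threshold, 44 passed it only there (39 without vehicle replicate 1), and 18 turned sign. In the series matrix without vehicle replicate 1 the turned values were Kl -0.15, Ogn -0.24, Islr -0.18, Ccdc153 -0.00160, Tspan2 -0.10, Trf -0.15, Slco1c1 -0.13, Ptprc -0.20 and Htr2c -0.11. Without vehicle replicate 2 there they were Islr -0.0666, Trf -0.14, Slco1c1 -0.0616, Ptprc -0.11 and Chac1 0.29. Ogn was -0.0762 with the choroid plexus covariate, and Tmem212 ran from -0.0150 to 0.70 with an array left out (lowest without vehicle replicate 3) and was -0.000677 without that array in the series matrix and -0.00338 with that array's series matrix values. The cause was not tested.

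The vehicle group had 3 arrays, 1 of which differed between the tables. Clusters below the filter were not tested. No separating gene named by the stated rule turned sign in any setting run. For the change of table and for arrays left out, the separation rule fixes the sign in advance, so nothing is read from this.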

Other observations

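A run of 8 neighbouring clusters, the first 8 that the array numbers on chromosome 9, separated lower in both tables, and was chosen after its values were seen. They are predicted genes with near-identical names (such as Gm10721 and Gm10715), so probes may be shared and their values are uncertain. Their differences ran from -1.0 to -0.67 in the signal table and from -0.93 to -0.66 in the series matrix. Over the 8 clusters the LA arrays spanned 16.43 to 18.61, against 17.32 to 19.35 on the vehicle arrays, and in each of the 8 the lowest array was the first 10% LA array and the highest was vehicle replicate 2. Gm21738, on another chromosome, read -1.51 ± 0.25 and Gm10801 -0.82 ± 0.22, both separating.

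Genes on the X chromosome were 12 of 104 placed higher genes (11.5%), against 2 of 111 lower genes (1.8%) and 471 of 12592 genes tested (3.74%). Among the 12 were Ocrl, Maged2 and Acsl4, a ligase that activates polyunsaturated fatty acids. They differed by 0.66 ± 0.15, 0.64 ± 0.18 and 0.46 ± 0.15. Chromosome 11 held 3 of the higher genes (2.88%) and 13 of the lower ones (11.7%), against 7.75% of genes tested. All mice were male, and these chromosome counts were noticed in the data and carry no test.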
